A study of Mus musculus with 4 samples.

Results

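Calcineurin is the calcium- and calmodulin-dependent phosphatase that dephosphorylates the NFAT transcription factors, and 10 genes of this pathway were followed across the 4 arrays of a mouse left ventricle study. The 10 were Ppp3ca, Ppp3cb and Ppp3r1, which encode calcineurin subunits, Nfatc1, Nfatc2, Nfatc3 and Nfatc4, which encode its substrates, and Rcan1, Rcan2 and Cabin1, which encode proteins that bind and restrain it. Members were taken by their listed symbols, with no threshold on their values. A probe was paired with 9 of the 10 symbols, 1 probe for each gene, among 23473 probes in all. For Rcan1 and Rcan2 the pairing went through the older names Dscr1 and Dscr1l1. No probe carried the symbol Ppp3r1, the regulatory subunit, so it has no value here.

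The samples were left ventricles of male C57BL/6 mice, wild type (WT) or lacking STIM1 (STIM1KO), with 1 array for each genotype and operation. Transverse aortic constriction (TAC), a ligature that loads the ventricle with pressure, was placed over a wire of 0.3 mm at 10 weeks of age, and control mice of each genotype had a sham operation. Tissue was taken 4 weeks later, at 14 weeks. Heart size, as a ratio of heart to body weight averaged per group and labelled with no unit, was 4.1 after sham and 6.7 after TAC in WT, and 4.5 and 4.9 in STIM1KO. They do not say how STIM1 was removed, in which cells, or whether the RNA of an array came from 1 mouse or a pool.

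When calcium stays raised in a cell, calmodulin activates calcineurin, NFAT loses phosphate and enters the nucleus, and kinases such as GSK3 and casein kinase 1 return it to the cytoplasm. STIM1 senses calcium in the endoplasmic reticulum and opens Orai channels, a source of such calcium. In heart muscle the pathway is known as a driver of pathological hypertrophy, and Rcan1 is the NFAT target most often read as a sign of calcineurin activity, through a start site inside the gene. That activity is set by dephosphorylation and location of protein, which RNA levels do not measure.

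The Rcan1 promoters are printed because its internal start is the one known to respond to NFAT, and those of Ppp3cb and Nfatc4 because these members had the same order of arrays. Each line holds the 250 bases before a start in RefSeq's table for GRCm38.p6, read on the strand of the gene. Capitals mark GGAAA, the core that NFAT binds, in either direction (GGAAA or TTTCC), and TGANTCA, the site of its partner AP-1, which reads the same on both strands. No GGAAA overlapped a TGANTCA in these windows.
Rcan1, first start, chr16:92466170-92466419, minus strand: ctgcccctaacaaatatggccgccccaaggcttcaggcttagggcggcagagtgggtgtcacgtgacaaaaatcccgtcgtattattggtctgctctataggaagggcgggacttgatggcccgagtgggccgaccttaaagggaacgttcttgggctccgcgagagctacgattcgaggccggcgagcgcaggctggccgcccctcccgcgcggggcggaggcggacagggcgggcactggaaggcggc
Rcan1, internal start, chr16:92400079-92400328, minus strand: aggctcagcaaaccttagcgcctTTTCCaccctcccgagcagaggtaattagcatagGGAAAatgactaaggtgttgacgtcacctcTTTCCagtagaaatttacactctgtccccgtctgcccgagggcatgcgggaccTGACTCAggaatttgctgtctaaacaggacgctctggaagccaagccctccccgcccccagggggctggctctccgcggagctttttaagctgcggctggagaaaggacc
Ppp3cb, chr14:20546574-20546823, minus strand: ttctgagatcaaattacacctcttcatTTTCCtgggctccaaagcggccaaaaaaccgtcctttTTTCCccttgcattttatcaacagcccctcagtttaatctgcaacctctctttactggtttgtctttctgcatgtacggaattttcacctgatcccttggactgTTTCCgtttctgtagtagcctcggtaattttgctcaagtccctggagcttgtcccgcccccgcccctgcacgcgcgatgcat
Nfatc4, chr14:55824545-55824794, plus strand: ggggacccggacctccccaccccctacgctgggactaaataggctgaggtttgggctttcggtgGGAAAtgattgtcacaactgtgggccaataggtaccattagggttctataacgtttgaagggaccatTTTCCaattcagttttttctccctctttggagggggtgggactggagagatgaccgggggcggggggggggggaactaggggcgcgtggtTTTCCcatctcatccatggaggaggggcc

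The window before the internal Rcan1 start held 3 GGAAA cores and 1 TGANTCA, and the window before the first start held 0 of either. The cores began 227, 193 and 163 bases before the internal start, and the TGANTCA 110 bases before it. Of 32851 windows of this length in the table, 55.6% held at least 1 GGAAA, 6.39% at least 3, 6.75% a TGANTCA and 0.457% both 3 cores and a TGANTCA. Ppp3cb and Nfatc4 each had 3 cores and 0 TGANTCA. A window of Nfatc2 also had 3 cores. In the normalized values its order of arrays differed from that of Ppp3cb and Nfatc4 only in STIM1KO sham and WT TAC. Those lay 0.02 apart on the log2 scale for Nfatc2, and whether the count goes with the order was not tested. Rcan2 had 2 cores before a start and a TGANTCA before another. Entries were used for 8 of the 10 symbols and none for Ppp3ca and Nfatc1, which does not show that the table lacks them. A match of letters is a description of the window and does not show that a factor binds there. The files do not say which Rcan1 transcript the probe detects.

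Every value below is a quantile-normalized intensity or a difference of its log2, and each difference compares 2 arrays. With 1 array per group there is no replicate error, no test and no p-value, so precision is limited by how few arrays there are. Of the 9 measured members, 6 lay at or above the median level of all genes (an intensity of 29.3), namely Ppp3ca, Ppp3cb, Nfatc2, Nfatc4, Rcan1 and Rcan2. Nfatc1, Nfatc3 and Cabin1 lay below it. No member had another probe as a check. For the 50 genes with exactly 2 probes above that level, the log2 differences under TAC of the 2 probes lay a median of 0.22 apart in WT and 0.37 apart in STIM1KO. A difference of that size in 1 probe is therefore within what 2 probes of the same gene disagree by. The 90th percentile of the gap was 0.65 in WT and 1.01 in STIM1KO, 0.76 between the sham arrays and 0.84 between the TAC arrays. No member above the median level differed by as much in the same comparison.

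Stim1, the targeted gene, had intensities of 41.6 after sham and 33.9 after TAC in WT, and 20.7 and 13.8 in STIM1KO, lower on both STIM1KO arrays. Across the 7020 genes passing the filter, the STIM1KO TAC array stood farthest from the others, with Pearson correlations of 0.963 to 0.974 against 0.987 to 0.990 among the other 3. These are correlations across genes, which are not replicates. It held the highest or lowest of the 4 values for 73.5% of those genes. A list of 8 cardiomyocyte markers was read as well. It was not set beside markers of other heart chambers, so it does not test the ventricle label. Of these, 7 had a value on all 4 arrays, with summed intensities from 147925 to 179971, and Actc1 had no probe here.

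**Figure D1:**
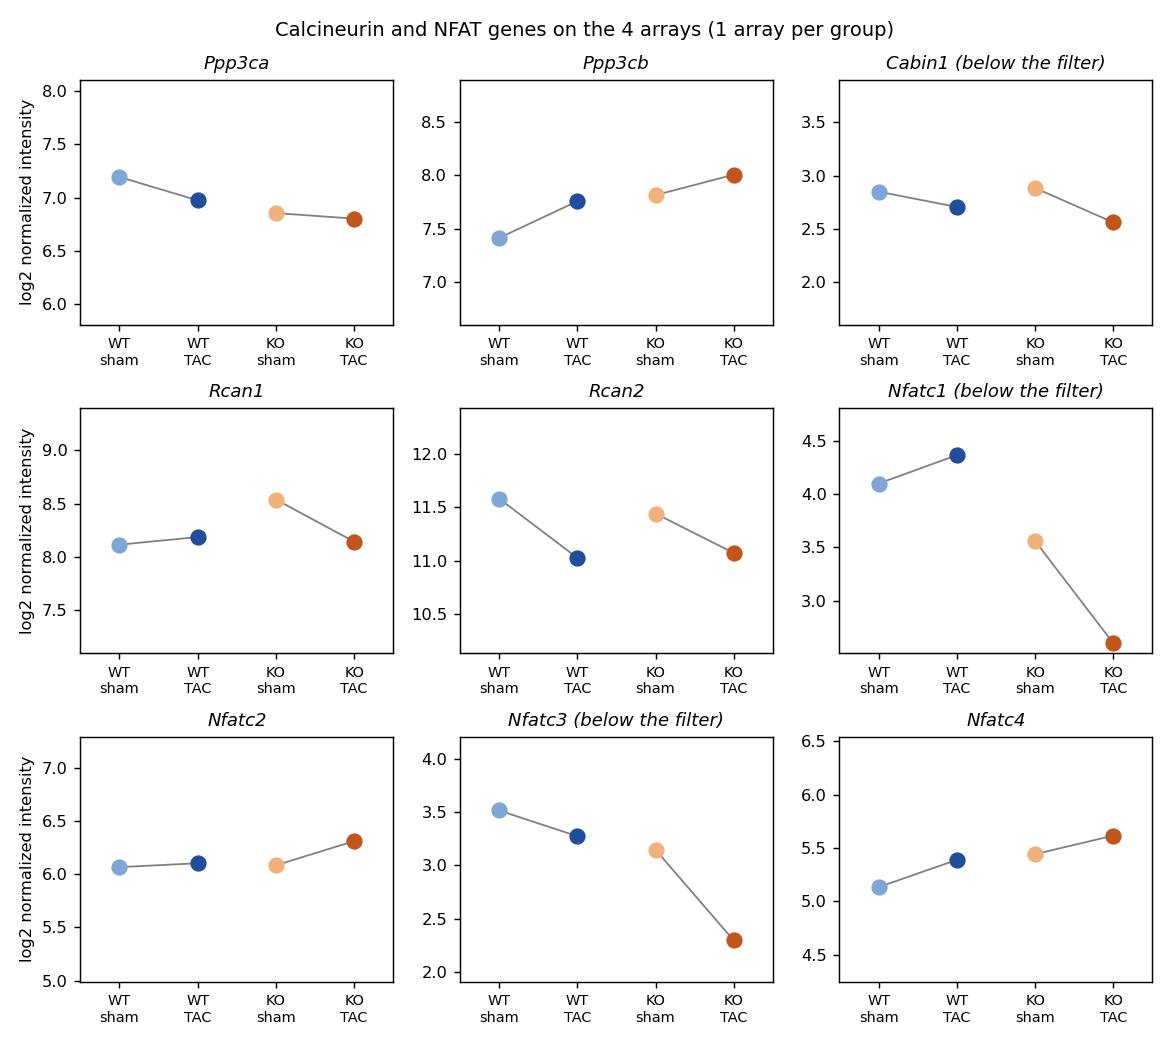
Log2 normalized intensity (vertical axis) of each measured member on the 4 arrays (horizontal axis), 1 point per array, every panel spanning the same number of log2 units; KO stands for STIM1KO and grey lines join sham and TAC of a genotype. Ppp3cb and Nfatc4 are lowest on WT sham and highest on STIM1KO TAC, Rcan1 is highest on STIM1KO sham at 372, and Nfatc1 is lowest on STIM1KO TAC at 6.06.

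None of the 6 members above the filter reached 2-fold in any comparison. Among all 7020 genes 2-fold was reached by 0.313% for TAC against sham in WT and 1.85% in STIM1KO, and by 0.556% between the sham arrays and 1.97% between those of TAC. For the STIM1KO response less the WT response, in which no filtered member reached 2-fold either, the share was 2.15%. A count of 0 among 6 genes is what such shares give, so it says little about these members. In the WT response, 4 members were above 0 and 2 below, with a median log2 difference of 0.05 beside -0.01 over all genes. In the STIM1KO response the split was 3 and 3, with a median of 0.06 beside -0.004. The first median turned to -0.074 with the filter at the 75th percentile. The second turned to -0.32 with no filter, to -0.21 at the 75th percentile and to -0.02 with median centring.

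Between the sham arrays, 4 members were higher in STIM1KO and 2 lower, with a median of 0.16 beside 0.001 over all genes. Between the TAC arrays the counts were also 4 and 2, with a median of 0.13 beside 0.01. The members' median turned to -0.044 with no filter. Of all genes, 50.1% were above 0 between the sham arrays and 51.1% between the TAC arrays. The first count includes Nfatc2 at 0.02 and the second Rcan2 at 0.05, and both turned to -0.03 in the deposited values, which leaves 3 and 3. Both responses and both genotype comparisons reuse the same 4 arrays, so these medians are not separate evidence. The WT sham array held the highest or lowest value for 6 of the 6 members, against 52.8% of all genes passing the filter. Among the dim members it did so for 1 of 3, against 49.6% of the genes below the filter. Ppp3cb, Nfatc2, Nfatc4 and Rcan1 were lowest there, and Ppp3ca and Rcan2 highest. For Nfatc2 and Rcan1 the next array was only 0.02 and 0.03 higher on the log2 scale. In the deposited values Nfatc2 was lowest on STIM1KO sham (65.8, with 67.2 on WT sham). Rcan1 was lowest on STIM1KO TAC there (276, with 279 on WT sham).

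**Figure D2:**
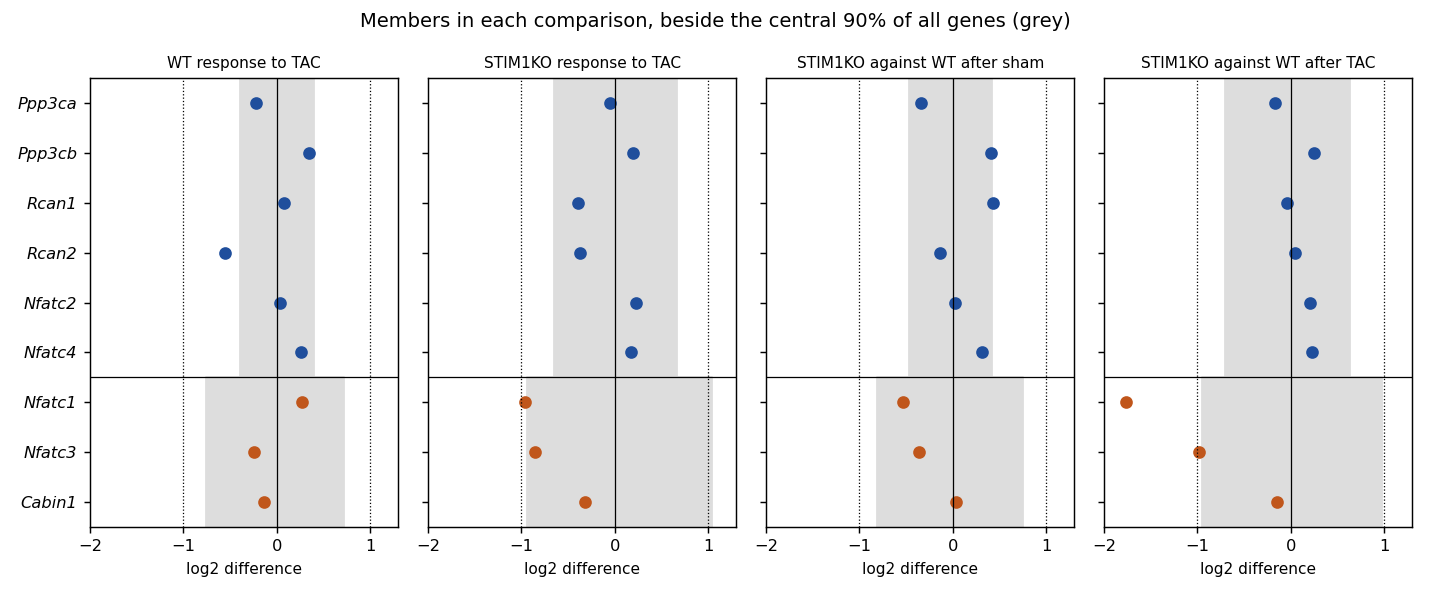
Log2 difference (horizontal axis) of each member (vertical axis) in the 4 comparisons, with members above the filter in blue and those below it in orange. Grey shows the range from the 5th to the 95th percentile of all genes on the same side of the filter, and dotted lines mark 2-fold; Nfatc1 lies past 2-fold between the TAC arrays, at -1.77.

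The catalytic subunits of calcineurin went opposite ways. Ppp3ca, the alpha isoform of the catalytic subunit, had intensities of 146 after sham and 126 after TAC in WT, and 116 and 112 in STIM1KO. It was highest in WT sham, and the STIM1KO arrays differed from each other by only 0.05 on the log2 scale. Its log2 difference was -0.34 between the sham arrays, at percentile 11.1 of the 7020 genes, and -0.22 in the WT response, at percentile 17.4. It was -0.17 between the TAC arrays and -0.05 in the STIM1KO response, whose sign turned to 0.01 with quantile normalization over all probes.

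Ppp3cb, the beta isoform and the one whose loss is known to blunt hypertrophy in mice, had 170 after sham and 216 after TAC in WT, and 225 and 257 in STIM1KO. WT sham was the low array, and WT TAC and STIM1KO sham lay 0.06 apart on the log2 scale. The log2 difference was 0.35 in the WT response, at percentile 92.6, and 0.40 between the sham arrays, at percentile 94.5. The STIM1KO response of 0.19 and the difference between the TAC arrays of 0.25 lay at percentiles 69.0 and 73.2. All 4 were above 0 under every alternative tried, which ranged from 0.08 to 0.44.

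A ratio of 2 probes within an array is free of any scaling of the whole array. Against WT sham, the log2 ratio of Ppp3cb to Ppp3ca was higher by 0.56 on WT TAC, and by 0.74 and 0.99 on the STIM1KO arrays of sham and TAC. The last is a 1.98-fold shift, or 1.94-fold in the values as deposited. The isoform ratio was thus lowest on WT sham and highest on STIM1KO TAC. This ratio was set up after the values were seen. It shows unequal differences of 2 probes, and it gives no ratio of RNA molecules, since probes differ in brightness per molecule.

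Ppp3cc, the gamma catalytic subunit, is no member and was in the list of family genes. It had 160 after sham and 144 after TAC in WT, and 153 and 111 in STIM1KO, with a log2 difference of -0.47 in the STIM1KO response and -0.38 between the TAC arrays. Rcan3, the third regulator of its family, was dim at 7.16 to 12.2, and Ppp3r2 and Nfat5, an NFAT relative that calcineurin does not control, lacked a value on at least 1 array.

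The regulators of calcineurin divided as well. Rcan1, the feedback inhibitor that NFAT itself induces, had 277 after sham and 292 after TAC in WT, and 372 and 283 in STIM1KO. The STIM1KO sham array was the high one, by 0.35 on the log2 scale over the next, and the other 3 lay within 0.07 of each other. Between the sham arrays Rcan1 was higher in STIM1KO by 0.42, a 1.34-fold difference at percentile 95.3 of all genes. In the STIM1KO response it differed by -0.40, at percentile 16.6, and both values rest on the same STIM1KO sham array.

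In the WT response Rcan1 differed by 0.07, and between the TAC arrays by -0.04. The heart to body weight ratio of the WT groups was 6.7 after TAC against 4.1 after sham, the widest gap between operations, and the Rcan1 probe was nearly level across those 2 arrays. Its STIM1KO response less its WT response came to -0.47, and to -0.59 with median centring. Over all genes the median of that quantity was -0.02, and -0.10 with median centring.

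Rcan2, a relative that also binds and inhibits calcineurin, had 3065 after sham and 2084 after TAC in WT, and 2780 and 2151 in STIM1KO. Both sham arrays were above both TAC arrays. The log2 difference was -0.56 in the WT response, a 1.47-fold lower value at percentile 1.55 of the 7020 genes. In the STIM1KO response it was -0.37, 1.29-fold lower, at percentile 18.4. The percentiles differ more than the values because the STIM1KO response was spread more widely, with an SD across genes of 0.42 against 0.25 in WT.

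Rcan2 varied with the operation more than with genotype. Between the sham arrays it differed by -0.14 and between the TAC arrays by 0.05, which turned to -0.03 both in the deposited values and with median centring. Relative to WT sham, the log2 ratio of Rcan1 to Rcan2 was higher on each other array, by 0.63 on WT TAC, by 0.56 and 0.54 on the STIM1KO arrays of sham and TAC. On WT TAC this came mostly from the lower Rcan2, and on STIM1KO sham mostly from the higher Rcan1.

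Cabin1, a nuclear protein that binds and blocks calcineurin, was dim, with 7.21 after sham and 6.53 after TAC in WT, and 7.39 and 5.90 in STIM1KO. These lie near the first quartile of probe intensities, 5.38 to 5.64 on the 4 arrays. Its largest log2 difference was -0.32 in the STIM1KO response, at percentile 27.5 of the 7019 genes below the filter, and it was -0.18 with an offset added before log2.

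Among the substrates, Nfatc2 and Nfatc4 passed the filter. Nfatc4, known in the heart for the link of calcineurin to hypertrophy with GATA4, had 35.1 after sham and 41.9 after TAC in WT, and 43.5 and 49.0 in STIM1KO. The order of the arrays was that of Ppp3cb, with WT TAC and STIM1KO sham again only 0.05 apart. In the deposited values WT TAC was above STIM1KO sham for both, at 224 and 221 for Ppp3cb and 42.6 and 42.0 for Nfatc4. Its log2 differences were 0.26 under TAC in WT, 0.17 in STIM1KO, 0.31 between the sham arrays and 0.23 between the TAC arrays. Those between the sham arrays and in WT lay at percentiles 89.1 and 87.1, both inside the central 90% of all genes.

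Nfatc2, best known from T cells, had 67.0 after sham and 68.7 after TAC in WT, and 67.8 and 79.4 in STIM1KO. The first 3 arrays lay within 0.04 on the log2 scale and STIM1KO TAC stood above them. TAC minus sham was 0.04 in WT and 0.23 in STIM1KO. The difference was 0.02 between the sham arrays, and -0.03 in the deposited values. Between the TAC arrays it was 0.21, at percentile 69.2. No T and B lymphocyte marker passed the filter. Of 10 markers, 7 had a value on all 4 arrays. Their intensities summed to 93.6 after sham and 84.3 after TAC in WT, and 83.0 and 62.6 in STIM1KO. In the STIM1KO response 6 were below 0 and 1 above, with a median of -0.54. Between the TAC arrays 5 were lower in STIM1KO and 2 higher, with a median of -0.55. Of all genes below the filter, 52.4% and 53.2% were above 0 in these comparisons. Cd4 went against most of the list in both, at 15.1 on STIM1KO TAC. The part of these markers in the Nfatc2 values was not tested.

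Nfatc1, which is required in the endocardium for valve formation, had 17.1 after sham and 20.6 after TAC in WT, and 11.8 and 6.06 in STIM1KO. Both STIM1KO arrays were below both WT arrays. Between the TAC arrays the log2 difference was -1.77, a 3.40-fold lower value at percentile 0.114 of the 7019 genes below the filter. It was the only one of the 3 dim members at 2-fold there, beside 8.8% of the dim genes at 2-fold either way and 4.26% lower. In the other comparisons of 2 arrays none of the 3 was at 2-fold, beside shares of 3.85% (TAC in WT), 9.77% (TAC in STIM1KO) and 4.79% (sham arrays).

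Between the sham arrays Nfatc1 differed by -0.54, at percentile 12.1. TAC minus sham was 0.27 in WT and -0.96 in STIM1KO, at percentiles 77.6 and 4.66. The value of 6.06 is close to the first quartile of that array, 5.38, where a small additive signal weighs heavily. With an offset of 5.49 intensity units added before log2, the difference between the TAC arrays was -1.18, still past 2-fold, and the STIM1KO response was -0.58. The STIM1KO response less the WT response was -1.23 for Nfatc1, where 15% of the dim genes were at 2-fold either way and 6.14% lower, and it was -0.79 with the offset.

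Markers of endothelial cells were also lower on both STIM1KO arrays. The 10 endothelial markers, all with a value on the 4 arrays, summed to 3845 after sham and 3538 after TAC in WT, and 2771 and 2411 in STIM1KO, and 9 of the 10 were lower in STIM1KO after each operation. Their median log2 difference was -0.34 between the sham arrays and -0.65 between the TAC arrays. Only Cdh5, the endothelial cadherin, and Emcn, endomucin, were dim like Nfatc1, and they went opposite ways between the TAC arrays, with Cdh5 at 10.2 in WT and 3.86 in STIM1KO and Emcn at 7.10 and 8.72. The sum of 8 fibroblast markers was lower on both STIM1KO arrays too, at 6274 after sham and 5930 after TAC in WT, and 4811 and 3664 in STIM1KO. Of these, 8 of 8 were lower between the sham arrays (median -0.31) and 6 of 8 between the TAC arrays (median -0.13), where Dcn differed by -1.01 and Col1a2 by 0.73. Of 9 macrophage markers, 8 were lower in STIM1KO after sham and 7 higher after TAC. Of 7 smooth muscle and pericyte markers, 4 were higher in each comparison. Their sum was 1643 after sham and 1351 after TAC in WT, and 1738 and 998 in STIM1KO. Of the 4 that passed the filter, 3 were lower in STIM1KO between the TAC arrays and 1 higher. Fewer cells of a type and less RNA per cell cannot be told apart in tissue RNA, and the part of any of these lists in the Nfatc1 result was not tested.

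**Figure D3:**
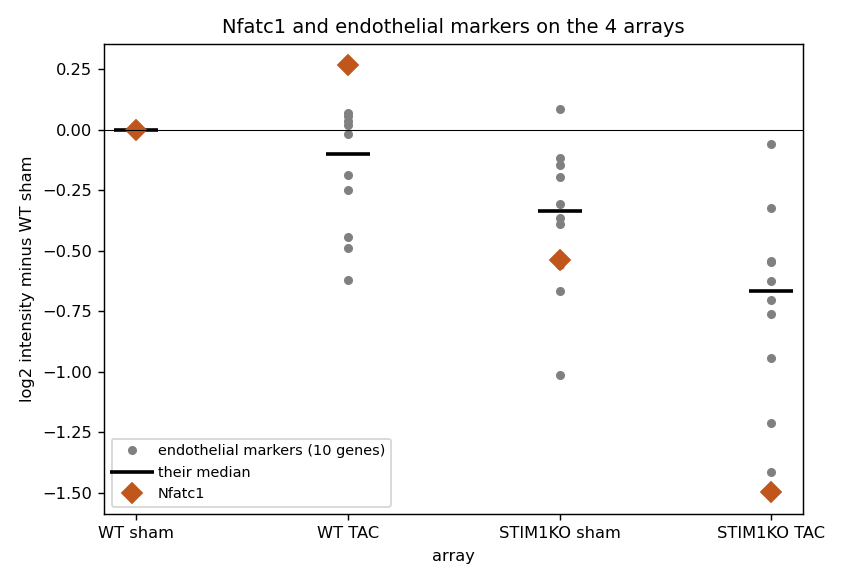
Log2 intensity minus that of WT sham (vertical axis) on each array (horizontal axis) for the 10 endothelial markers (grey points, 1 per gene, with a black bar at their median) and Nfatc1 (orange diamond). Nfatc1 lies above the marker median on WT TAC, at 0.27, and below it on both STIM1KO arrays.

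Nfatc3, the isoform whose loss is known to reduce hypertrophy in mice, was dim as well, with 11.4 after sham and 9.67 after TAC in WT, and 8.85 and 4.90 in STIM1KO. STIM1KO TAC was the low array, under the first quartile of its probes, and the other 3 lay within 0.37 on the log2 scale. The difference was -0.98 between the TAC arrays, at percentile 4.50, and -0.85 in the STIM1KO response, at percentile 6.80. With the offset these were -0.54 and -0.46. In the WT response it was -0.24 and between the sham arrays -0.37.

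All 3 dim members were lowest on STIM1KO TAC, which was the low array for 31.1% of the genes below the filter. Their medians were -0.98 between the TAC arrays and -0.85 in the STIM1KO response, beside 0.04 and 0.03 over those 7019 genes. Of the 6 members above the filter, Ppp3cb, Nfatc2 and Nfatc4 were highest on STIM1KO TAC and Ppp3ca lowest, beside 37.4% of all filtered genes highest and 36.1% lowest there, so these counts do not set the members apart. Between the TAC arrays Nfatc2 and Nfatc4 were above 0, by less than the median gap of 0.35 between 2 probes of a gene, and the values below 0 belong to the dim probes of Nfatc1 and Nfatc3.

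Genes with profiles most like those of 2 members were found by Euclidean distance between log2 profiles centred over the 4 arrays, among 6879 genes with full names. Nearest to Rcan1 were Asb8 (0.031 log2 units), Cxxc5 (0.031) and Ccl9 (0.035). Nearest to Ppp3cb, the filtered member with the widest range, were Mrps7 (0.016), Atp6v1e1 (0.022) and Eif3k (0.037). A profile of 4 arrays has many close neighbours among so many genes, so this likeness is a description.

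Proteins that anchor, block or assist calcineurin were taken as a list of 13, of which 10 passed the filter. In WT under TAC 4 were above 0, 5 below and 1 at 0, with a median of -0.01. In STIM1KO the split was 9 above and 1 below around a median of 0.31, beside -0.004 for all genes, of which 49.4% were above 0. Fbxo32, the muscle ubiquitin ligase atrogin-1 that targets calcineurin for degradation, had 57.2 after sham and 41.6 after TAC in WT, and 47.0 and 86.7 in STIM1KO. Among the 10 it was the only gene at 2-fold in a comparison of 2 arrays, higher by 1.06 in STIM1KO TAC than in WT TAC. Between those arrays 1.97% of all genes were at 2-fold. Below the filter, Myoz3 differed by -1.47 in the STIM1KO response, from 5.40 to 1.95.

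Akap6, the scaffold mAKAP that gathers calcineurin and NFAT at the nuclear envelope, ran from 376 in WT sham through 457 in WT TAC and 466 in STIM1KO sham to 607 in STIM1KO TAC. WT sham was again the lowest array and STIM1KO TAC the highest, as for Ppp3cb and Nfatc4, with the middle arrays close together. Of all genes passing the filter, 26.1% were lowest on WT sham and 37.4% highest on STIM1KO TAC. The share with the whole order was not counted, so the likeness is a description. Cib1, which anchors calcineurin at the sarcolemma, was at 111 and 107 on the WT and STIM1KO sham arrays and at 142 on both TAC arrays. TAC minus sham was 0.36 in WT and 0.41 in STIM1KO. Chp2, a calcineurin B homologue, was higher by 0.58 in the STIM1KO response and 0.71 between the TAC arrays.

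Calm2, a calmodulin gene, lay between 1340 and 1490 on the 4 arrays, with log2 differences from -0.04 to 0.15 in the 4 comparisons. Of 12 kinases that phosphorylate NFAT and so oppose calcineurin, 6 passed the filter and none of these reached 2-fold. Of all genes 0.313% to 1.97% did in the 4 comparisons, so a count of 0 among 6 says little. Their median under TAC was -0.11 in WT and 0.08 in STIM1KO, and it was -0.05 between the sham arrays and -0.03 between the TAC arrays.

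Csnk1a1, casein kinase 1 alpha, was at 315 after sham and 292 after TAC in WT, and 247 and 165 in STIM1KO, with a log2 difference of -0.82 between the TAC arrays. Mapk9, the stress kinase JNK2, went the other way between those arrays, at 0.65, with 176 in WT TAC and 278 in STIM1KO TAC. Csnk1e, the epsilon isoform, differed by -0.55 between the sham arrays, and Dyrk1a by 0.32 between the TAC arrays. Gsk3b was dim, at 5.72 to 11.2.

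**Figure D4:**
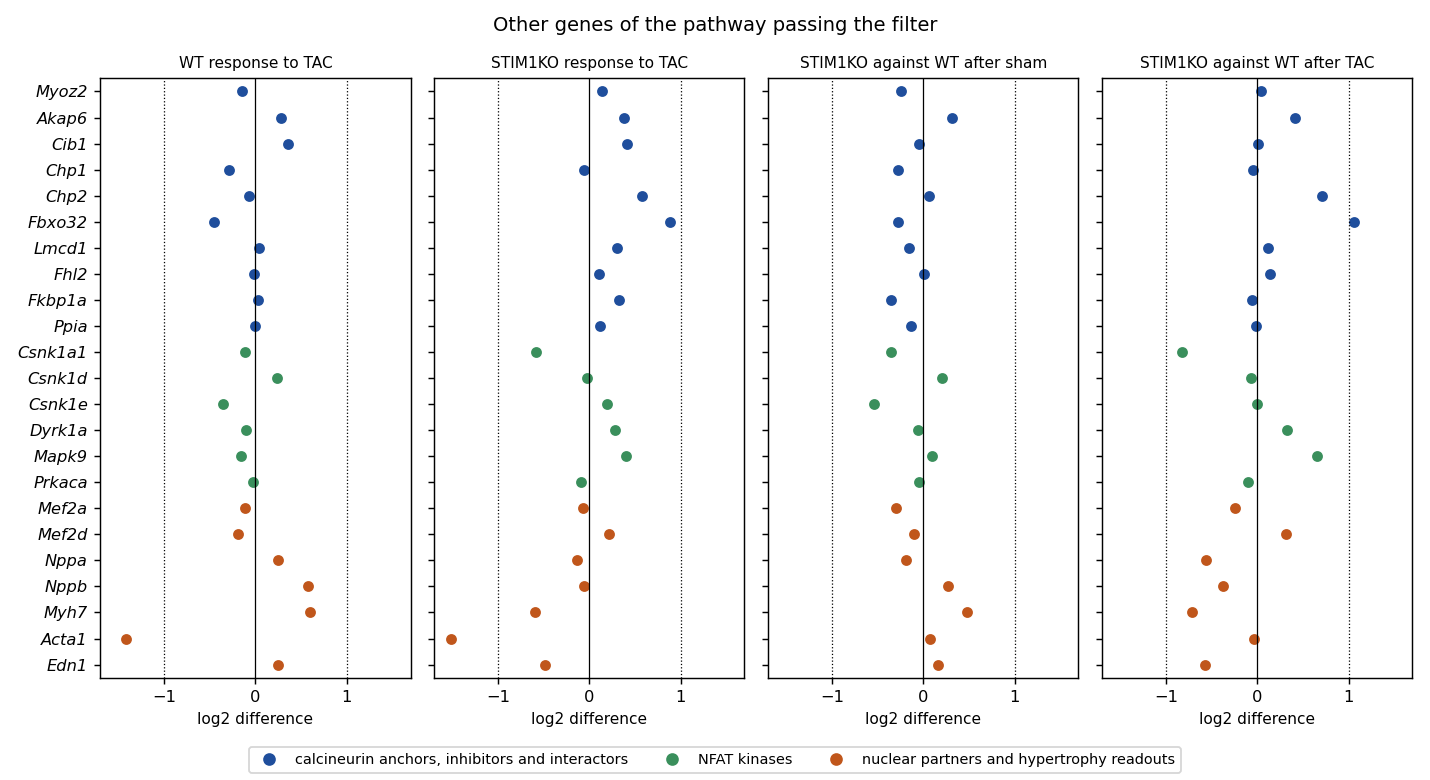
Log2 difference (horizontal axis) in the 4 comparisons for the genes of 3 lists (vertical axis) that passed the filter, coloured by list, 1 point per gene, with dotted lines at 2-fold. Of the 10 anchors and interactors, 9 lie above 0 in the STIM1KO response, beside 49.4% of all genes, and Fbxo32 is past 2-fold between the TAC arrays.

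Of 11 nuclear partners of NFAT and hypertrophy readouts, 7 passed the filter. In WT under TAC the split was 4 above 0 and 3 below around a median of 0.24. In the STIM1KO response 1 was above 0 and 6 below, with a median of -0.14. Between the TAC arrays 6 of 7 were lower in STIM1KO, with a median of -0.37. Of all genes passing the filter, 47.3%, 49.4% and 51.1% were above 0 in these comparisons, with medians of -0.01, -0.004 and 0.01. Acta1 alone was at 2-fold in a comparison of 2 arrays, lower in both responses. Of all genes, 0.313% in WT and 1.85% in STIM1KO were at 2-fold either way. Myh7, the fetal myosin heavy chain, had 50.6 after sham and 76.3 after TAC in WT, and 70.2 and 46.5 in STIM1KO. Nppb, which encodes B-type natriuretic peptide, had 2535, 3778, 3045 and 2919 in the same order.

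Between the sham arrays, 4 of the 7 were higher in STIM1KO, as Rcan1 was, beside 50.1% of all genes passing the filter, so the count says little. These were Myh7 by 0.47, Edn1, which encodes endothelin-1, by 0.16, Nppb by 0.26 and Acta1 by 0.07. In the STIM1KO response they were below 0, at -0.59, -0.48, -0.06 and -1.52. Both comparisons use the STIM1KO sham array, so a high value there lowers the response, and the 2 are not separate evidence. The sham values of Edn1 and Acta1 lie under the median gap of 0.18 between 2 probes of a gene. Nppa, Mef2a and Mef2d were lower on STIM1KO sham, at -0.19, -0.30 and -0.10. Their STIM1KO responses were -0.14, -0.07 and 0.22, so values below 0 there were not limited to the genes higher on STIM1KO sham. In WT under TAC, Myh7 was higher by 0.59, Nppb by 0.58, Edn1 by 0.24 and Rcan1 by 0.07. Nppa, the atrial peptide, had 1422, 1684, 1249 and 1136. Acta1, skeletal actin, was lower on both TAC arrays, at 1881, 706, 1973 and 688.

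Gata4, the partner through which NFAT acts on cardiac promoters, was below the filter and is named after its values were seen. It had 21.8 after sham and 25.5 after TAC in WT, and 20.1 and 8.82 in STIM1KO. The low array was again STIM1KO TAC, with a log2 difference of -1.53 from WT TAC. Mef2a and Mef2d, further partners, differed by -0.25 and 0.31 between the TAC arrays.

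**Figure D5:**
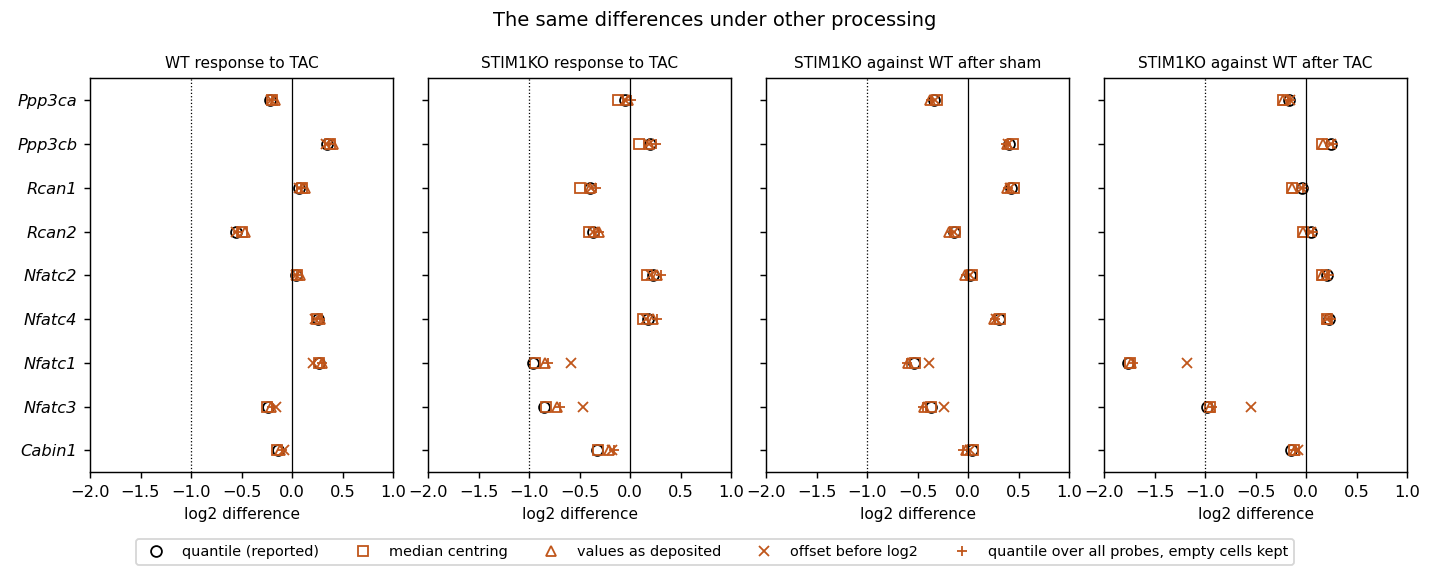
Log2 difference (horizontal axis) of each member (vertical axis) in the 4 comparisons under the reported quantile normalization (black circles) and 4 other ways of processing (orange), with a dotted line at 2-fold lower. For Nfatc1 between the TAC arrays the offset gives -1.18 in place of -1.77, and for members above the filter the points lie close together.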

How the data were processed

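Total RNA of the left ventricle was measured on 4 single-channel arrays. Amplified RNA carried amino allyl groups and was coupled to Cy5, per the labels' protocols. The values the authors deposited are linear intensities, 1 for each probe of an array, scaled to a median of about 20. Which scanner was used, how background was treated and why some cells are empty was not stated in the labels or files. Of 23473 probes, 19607 had a value on all 4 arrays. Each array was put in its group by its title. Of the probes, 16631 had 1 symbol in the platform annotation, 0 several and 6842 none, and 3947 symbols were updated through synonyms in a RefSeq table of GRCm38.p6.

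The deposited intensities were taken to log2 and quantile-normalized over probes with 4 values. The brightest probe stood for a gene. Genes at or above the median mean log2 intensity (4.87) passed the filter, 7020 of 14039. The central 90% is the range from the 5th to the 95th percentile. Steps were tested on simulated data and run in Python 3.11.15 with numpy 2.4.6 and pandas 2.3.3. No test was possible with 1 array per group. Members and lists were chosen with earlier results of these data known. Named genes were all members, up to 4 of each list above the filter with the largest differences, Stim1, Nppa, Nppb, Myh7, Acta1 and the 3 genes nearest in profile to Rcan1 and to the widest-ranging member. Genes named beyond this (Ppp3r2, Rcan3, Nfat5, Gsk3b, Gata4, Mef2a, Mef2d, Myoz3, Cdh5, Emcn, Cd4, Actc1) were picked with their values in view. Alternatives were median centring, values as deposited, an offset before log2, no filter, a filter at the 75th percentile, the mean over probes, and thresholds of 1.5-fold and 3-fold. Quantile normalization over all probes, or without the STIM1KO TAC array, was added after seeing the data.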

Additional observations from a re-analysis of the deposited data

Results flagged for a closer look

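Opposite signs of the same contrast in 2 groups occurred for 5 of 18 pairs of member values. With 1 array per group the differences were not tested. Nfatc1 was higher under TAC in WT (0.27) and lower in STIM1KO (-0.96), a gap of -1.23 on the log2 scale. Rcan1 was at 0.07 and -0.40, a gap of -0.47, and its genotype differences after sham (0.42) and TAC (-0.04) have the same gap of -0.47 by construction. Rcan2 differed between genotypes by -0.14 after sham and 0.05 after TAC, a gap of 0.19. Cabin1 differed by 0.03 and -0.15, a gap of -0.18. Of these values, those within 0.1 of 0 are too small for their sign to carry weight.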

How the results depend on the processing

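No paired analysis was possible because each group has 1 array, and for the same reason no replicate could be left out. Of 45 single member values, 9 moved by 0.1 or more on the log2 scale with the offset, 6 with quantile normalization over all probes, 4 with median centring and 3 as deposited. A filter or a mean over probes cannot move a member's own value, since each has 1 probe. With no filter on dim genes, where Nfatc1, Nfatc3 and Cabin1 enter, the median became -0.32 in the STIM1KO response, 0.017 between the sham arrays, -0.044 for the TAC pair and -0.15 for the STIM1KO response less the WT response. The count at 2-fold then became 1, Nfatc1, both between the TAC arrays and in that last quantity. With the filter at the 75th percentile, which leaves 4 members, the median became -0.074 in WT under TAC, -0.21 in STIM1KO and 0.00075 between the TAC arrays. These changes follow from which members enter. With median centring the median was -0.02 in the STIM1KO response and -0.02 for the STIM1KO response less the WT response. No member value past 2-fold changed sign, and 4 small values did in at least 1 setting (Rcan2 between the TAC arrays, Nfatc2 and Cabin1 between the sham arrays, and Ppp3ca in the STIM1KO response). Without the STIM1KO TAC array in the normalization, 0 of 18 member values moved by 0.1. The limits are 1 array per group, 1 probe per gene and dim probes for 3 members, whose differences shrink with an offset.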
